A study of Homo sapiens with 10 samples.

Results

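The 38 genes described here make, sense and move cholesterol or make fatty acids. They were chosen by name out of 31014 genes with a counted 3′ end. They are genes that the transcription factors SREBP and LXR are known to control or that act in the same pathways. The rule used no measured value, but the genes were chosen with earlier results of these data known. Sterol synthesis is represented by 20 enzymes (ACAT2, HMGCS1, MVK, PMVK, MVD, IDI1, FDPS, FDFT1, GGPS1, SQLE, LSS, CYP51A1, TM7SF2, LBR, MSMO1, NSDHL, HSD17B7, EBP, SC5D and DHCR7). Sterol sensing is represented by 5 genes (INSIG1, INSIG2, SREBF1, SREBF2 and SCAP), cholesterol transport and LXR targets by 6 (STARD4, ABCA1, ABCG1, MYLIP, NPC1 and NPC2) and fatty acid synthesis by 7 (SCD, FASN, ACACA, ACLY, ELOVL6, FADS1 and FADS2).

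Cells make cholesterol from acetyl-CoA through mevalonate, squalene and lanosterol. When membrane sterol is low, SCAP carries SREBP precursors out of the endoplasmic reticulum, their cleaved forms enter the nucleus, and the synthesis genes are transcribed, whereas the INSIG proteins hold SCAP back when sterol is plentiful. Oxysterols made from excess cholesterol activate LXR, which drives export (ABCA1, ABCG1), MYLIP, a ubiquitin ligase that limits lipoprotein uptake, and SREBF1, whose product drives fatty acid synthesis. Prostate cancer cells are known for active lipid synthesis.

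SLAM-seq was performed in 22RV1, a prostate cancer cell line that grows without androgen. Beside control cells, the groups analysed had received for 4 h either SRPIN340 (20 μM), an inhibitor of the splicing kinase SRPK1, Endovion (50 μM), which the study describes as another SRPK1 inhibitor, THZ531, an inhibitor of the transcription kinase CDK12, or THZ531 and Endovion together. Each of the 5 groups had 2 libraries, and the dose of THZ531 was 100 nM in the methods and 150 nM in the description of the series. All cells received 4-thiouridine for 10 min, so that reads with a T>C conversion mark newly made (nascent) RNA and all reads of a gene together measure its total RNA. No library without 4-thiouridine was analysed here, so the level of T>C reads that arise without the label is unknown. Nothing states that the replicates came from separate cultures, so p-values measure the spread between these libraries, which may be technical.

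Promoter sequence (250 bases before to 50 after the start, RefSeq, GRCh38.p14) was matched for 33 of the 38 genes. The lines below show where the element bound by SREBP and the CCAAT box bound by its partner NF-Y lie in genes that the results turn on, in capitals, read along the gene's strand. ATTGG is CCAAT on the opposite strand, and each window holds 30 bases. Only a single window is printed per gene. The promoters of HMGCS1, MSMO1, MVK, STARD4 and MYLIP hold further CCAAT boxes, and that of SREBF2 also holds CCAAT.
SREBF2, chr22:41832961-41832990, plus strand: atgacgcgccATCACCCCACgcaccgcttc
HMGCS1, chr5:43313495-43313524, minus strand: ctaccggccgcgATTGGctgtgggagccac
MSMO1, chr4:165327581-165327610, plus strand: caactgcacagaCCAATcaccgcgccgaga
MVK, chr12:109573736-109573765, plus strand: tcgcgcgctctgATTGGctggcctgaagta
STARD4, chr5:111512648-111512677, minus strand: ctcccgcgccagCCAATccgaacaagcgca
MYLIP, chr6:16128965-16128994, plus strand: aggggcgccgctATTGGctgatcgggcggg

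On both strands, CCAAT was found in the promoters of 23 of the 33 genes (69.7%) and of 39.7% of 27305 genes. The sterol regulatory element in its longer form, the capitals of the SREBF2 line, was found in SREBF2 alone among the 33 and in 0.0586% of all promoters. The looser TCACNCCAC, which the longer form also satisfies, was again found only in SREBF2 (1.39% of all promoters). A match describes these letters in this window and is not a measured binding site.

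Mapped reads ranged from 35517462 to 53592904 per library. Between 1011593 and 1576069 of the reads on genes carried a conversion. After a filter on low counts, 32 of the 38 genes were tested in nascent RNA (of 9945 genes) and 37 in total RNA (of 14688). In nascent RNA, LSS, HSD17B7, INSIG2, ABCA1, ABCG1 and ACACA had too few T>C reads. LSS had 0 to 4 reads per library and was not tested in either. Levels of total RNA are given as RPM, the reads of a gene per 1000000 reads on genes, and levels of nascent RNA as T>C RPM, its T>C reads per 1000000 T>C reads on genes, with no correction for length, so they are compared between libraries and not between genes. The prostate markers STEAP2 (182 to 322 RPM), FOXA1 (81.9 to 233 RPM) and HOXB13 (43.5 to 114 RPM) were present in every library. FOLH1 was at 6.91 to 35.7 RPM, KLK2 at 8.84 to 21.0 RPM and KLK3 at 2.50 to 8.335 RPM. TMPRSS2 was at only 1.05 to 2.66 RPM and TRPM8 at 0 to 0.192 RPM. The summed level of 8 genes of other cell types was at most 4.41 RPM, and COL1A1 among them was at 1.615 to 3.27 RPM.

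In control cells the genes differed widely in the share of their reads that carried a conversion. The median of the 34 genes with at least 100 reads in both control libraries was 3.97%, against 4.83% over 9777 such genes, whose 10th and 90th percentiles were 2.29% and 11.4%. High shares were measured for NPC1 (18.5% and 12.3% in the 2 libraries), which moves cholesterol out of lysosomes, SC5D (13.4% and 14.4%) and EBP (11.1% and 11.9%), both late enzymes of sterol synthesis, and MYLIP (8.84% and 12.3%). Low shares were measured for FDPS (1.43% and 1.66%), MVD (1.28% and 1.39%) and MVK (2.30% and 1.94%), enzymes of the mevalonate branch, and for TM7SF2 (0.696% and 1.85%), a late sterol reductase. IDI1, also of the mevalonate branch, was above the median of all genes (6.48% and 8.15%). MSMO1, which removes methyl groups from the sterol ring, was at 6.95% and 8.78%, and HMGCS1, which makes HMG-CoA, at 4.12% and 3.94%. The share also depends on how many T a gene's reads cover. Per 100 covered T positions, MYLIP had 0.793 and 1.77 conversions, HMGCS1 0.153 and 0.142 and MVK 0.0707 and 0.0704. MVD had 0.109 and 0.118, FDPS 0.0380 and 0.111 and TM7SF2 0.0683 and 0.175. MVD, with a lower share than MVK in both libraries, thus had more conversions per covered T.

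**Figure D1:**
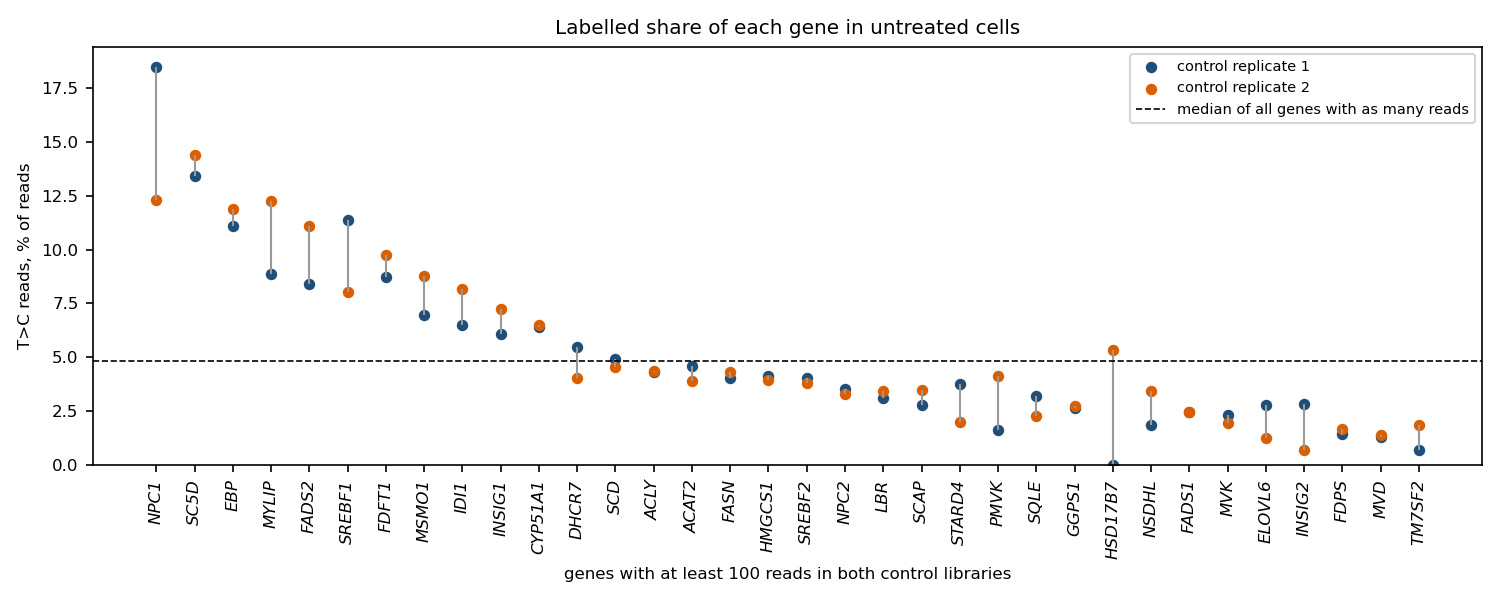
Percent of the reads of each gene that carried a T>C conversion (vertical axis) in the control replicates, one point per library, for the 34 genes with at least 100 reads in both; the dashed line is the median of all genes with as many reads (4.83%). The points of most genes lie close together, and HSD17B7, with 0 and 16 T>C reads, is spread widest relative to its level.

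The first question was which of the genes changed with each compound. By edgeR at an adjusted p under 0.05, the nascent RNA of 2 of the 32 genes fell with Endovion (background, 0.623% of all genes fell) and of 0 rose (2.04%). With THZ531 0 fell (3.6%) and 1 rose (3.86%). With both compounds 3 fell (3.51%) and 1 rose (4.62%). In total RNA, Endovion lowered 7 of 37 genes (background 2.54%) and raised 1 (8.91%), THZ531 lowered 2 (14.1%) and raised 8 (16.6%), and both together lowered 6 (12.4%) and raised 4 (16.6%). The share of the 37 genes that fell with Endovion was thus above the background share, and the share that rose was below it. With THZ531 the share that rose was near the background, and the share that fell was below it. The median log2 fold change of the tested genes with Endovion was -0.15 in nascent RNA (all genes, -0.01) and -0.15 in total RNA (all genes, 0.02). With THZ531 it was 0.06 in nascent RNA (all genes, -0.02) and 0.11 in total RNA (all genes, -0.01).

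**Figure D2:**
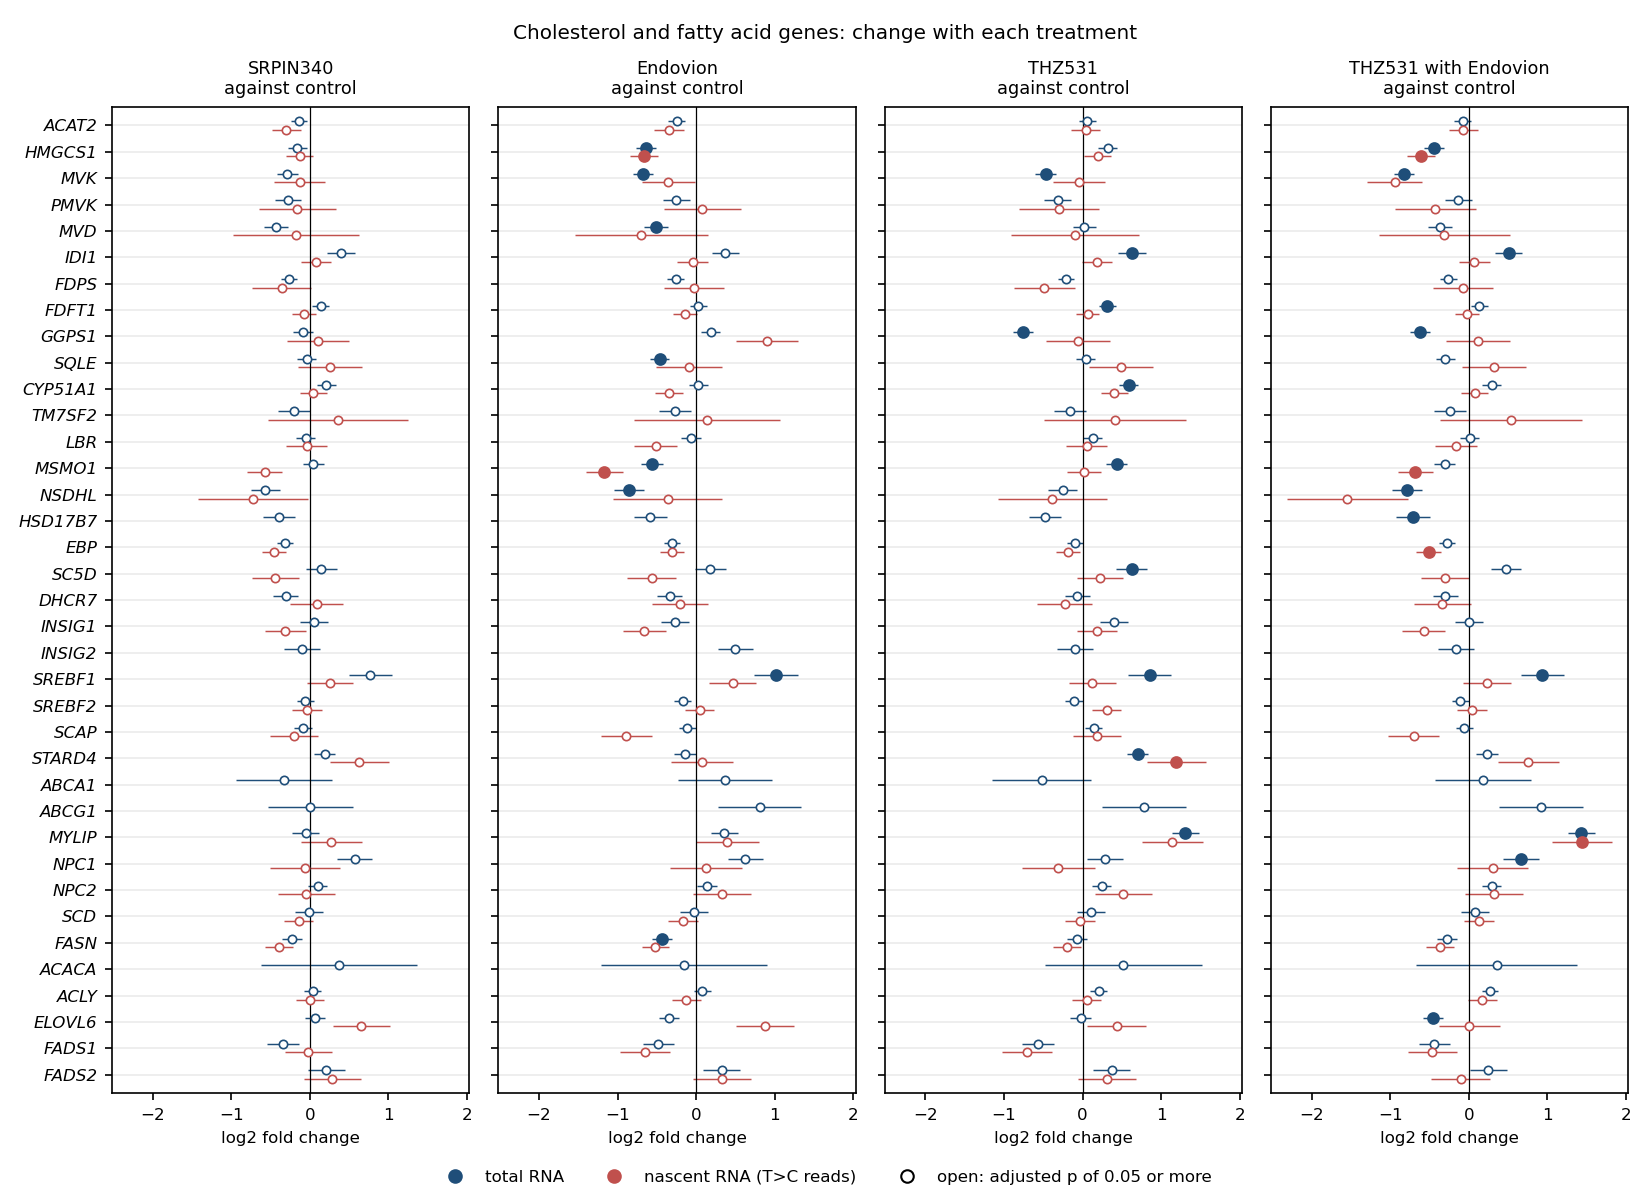
Log2 fold change against control (horizontal axis, bars are standard errors of the edgeR fit) of the 37 genes tested, in total RNA (blue) and nascent RNA (red), one panel per treatment; filled points have an adjusted p under 0.05. With Endovion the filled points lie left of 0 except SREBF1 in total RNA, and with THZ531 the filled points of MYLIP in total RNA (1.31) and STARD4 in nascent RNA (1.19) lie farthest right.

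Endovion lowered sterol synthesis enzymes. In total RNA 6 of 19 tested enzymes fell (MSMO1, SQLE, MVK, HMGCS1, NSDHL and MVD, background 2.54%) and 0 rose (8.91%). The median of the 19 was -0.27 (all genes, 0.02), and 14 lay below 0. In nascent RNA 2 of 18 fell, MSMO1 and HMGCS1 (background 0.623%), and 15 lay below 0, with a median of -0.33 (all genes, -0.01). Because the libraries were made from bulk RNA, fewer cells and less RNA per cell cannot be told apart, and every value is relative to its library.

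HMGCS1 (chr5:43287470-43313512, minus strand, hg38), read through the 3′ UTR at chr5:43289395-43291130, had 468 and 371 RPM of total RNA in the 2 control libraries, 393 and 365 with SRPIN340, 278 and 254 with Endovion, 503 and 475 with THZ531, and 304 and 271 with both compounds. Both groups with Endovion lay below all other libraries, and the SRPIN340 and control libraries overlapped. Endovion changed its total RNA by -0.64 on the log2 scale (SE 0.12, edgeR adjusted p = 0.00605). Its nascent level was 338 and 259 T>C RPM in control cells, 306 and 270 with SRPIN340, 191 and 196 with Endovion, 349 and 325 with THZ531, and 205 and 187 with both. The order of the groups was that of total RNA, and nascent HMGCS1 fell by 0.67 on the log2 scale with Endovion (SE 0.18, edgeR adjusted p = 0.0197). An unnamed gene on the opposite strand overlaps this interval, and strand use in the counting is not given in the sources used here, so reads of that gene cannot be told apart.

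MSMO1 (chr4:165327667-165343164, plus strand) had 164 and 149 T>C RPM in control cells, 102 and 121 with SRPIN340, 69.9 and 73.6 with Endovion, 180 and 134 with THZ531, and 108 and 87.0 with both. The Endovion libraries were the lowest of the 10 and did not overlap any other group. Its nascent RNA changed by -1.17 (SE 0.23, edgeR adjusted p = 0.000681), the largest fall in size among the 32 genes with this compound, and it remained below the threshold in each of the 10 fits that left out 1 library, between -1.26 and -1.11 over these and 8 other alternatives. In total RNA MSMO1 was at 135 and 96.0 RPM in control cells, 115 and 125 with SRPIN340, 76.4 and 77.4 with Endovion, 140 and 151 with THZ531, and 83.4 and 90.8 with both. Here too the Endovion libraries were the lowest, and the control libraries were far apart. The change was -0.56 (SE 0.14, adjusted p = 0.0167), and -0.30 without control replicate 1, -0.55 without Endovion replicate 1 and -0.58 without Endovion replicate 2, where it no longer passed.

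MVK phosphorylates mevalonate and lies at chr12:109573255-109598125. Its total RNA was at 142 and 156 RPM in control cells, 124 and 122 with SRPIN340, 91.1 and 92.2 with Endovion, 116 and 85.3 with THZ531, and 72.7 and 84.5 with both. All 8 treated libraries were below both control libraries. The change with Endovion was -0.68 (SE 0.13, edgeR adjusted p = 0.00586), while nascent MVK, with 57.4 and 53.7 T>C RPM in control cells against 56.1 and 31.9, did not pass the test (-0.36, SE 0.34).

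SQLE, which oxidises squalene, had 50.3 and 47.6 RPM in control cells, 45.7 and 50.7 with SRPIN340, 35.4 and 34.6 with Endovion, 46.0 and 48.1 with THZ531, and 36.2 and 38.2 with both. As for HMGCS1, both groups with Endovion lay below the other 6 libraries. Its total RNA fell by 0.47 on the log2 scale with Endovion (SE 0.12, edgeR adjusted p = 0.0249), while its nascent RNA, with 19.2 to 36.0 T>C RPM, changed by -0.09 (SE 0.42) and did not pass.

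NSDHL, which acts beside MSMO1 on the sterol ring, had 24.0 and 34.1 RPM in control cells, 16.7 and 15.0 with Endovion and 13.9 and 17.7 with both compounds. The control libraries did not overlap either group. The change with Endovion was -0.85 (SE 0.19, edgeR adjusted p = 0.0107), and -0.62 without control replicate 2, -0.93 without Endovion replicate 1 and -0.78 without Endovion replicate 2, where the call was lost. MVD, the last enzyme before isopentenyl diphosphate, fell by 0.51 on the log2 scale (SE 0.15, edgeR adjusted p = 0.0368), from 37.3 and 37.4 RPM in control cells to 28.7 and 22.9.

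These calls rest on 2 libraries a group. Without 1 of the 4 libraries compared, the number of the 37 genes that fell in total RNA with Endovion was 4 without control replicate 1, 3 without control replicate 2 and 1 without either Endovion library. HMGCS1 was lost only without Endovion replicate 2 (-0.58), MVK only without Endovion replicate 1 (-0.66) and nascent HMGCS1 without control replicate 1 (-0.48) or either Endovion library (-0.65 and -0.68). SQLE was lost without any 1 of the 4 (-0.55 to -0.42), and MVD likewise (-0.68 to -0.36). The MVD call was kept in 4 of the 10 fits that left out 1 library.

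Not every enzyme of the branch was lower with Endovion. IDI1, which isomerises isopentenyl diphosphate, had 159 and 95.9 RPM in control cells and 157 and 168 with Endovion (0.37, SE 0.18), and its nascent level was 181 and 139 T>C RPM against 150 and 168 (-0.05, SE 0.20). GGPS1, which makes geranylgeranyl diphosphate, changed by 0.19 in total RNA (SE 0.12). EBP, a sterol isomerase, changed by -0.31 in total RNA (SE 0.10, edgeR adjusted p = 0.0583) and by -0.51 in nascent RNA with both compounds (SE 0.16, adjusted p = 0.0282). For EBP the nascent level was 529 and 593 T>C RPM in control cells, 460 and 406 with SRPIN340, 481 and 449 with Endovion, 522 and 451 with THZ531, and 386 and 403 with both, and the treated libraries were all below both control libraries. Without control replicate 2 the change of EBP with both compounds was -0.39, without replicate 1 of the combined treatment -0.52 and without replicate 2 -0.50, and none of these passed.

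**Figure D3:**
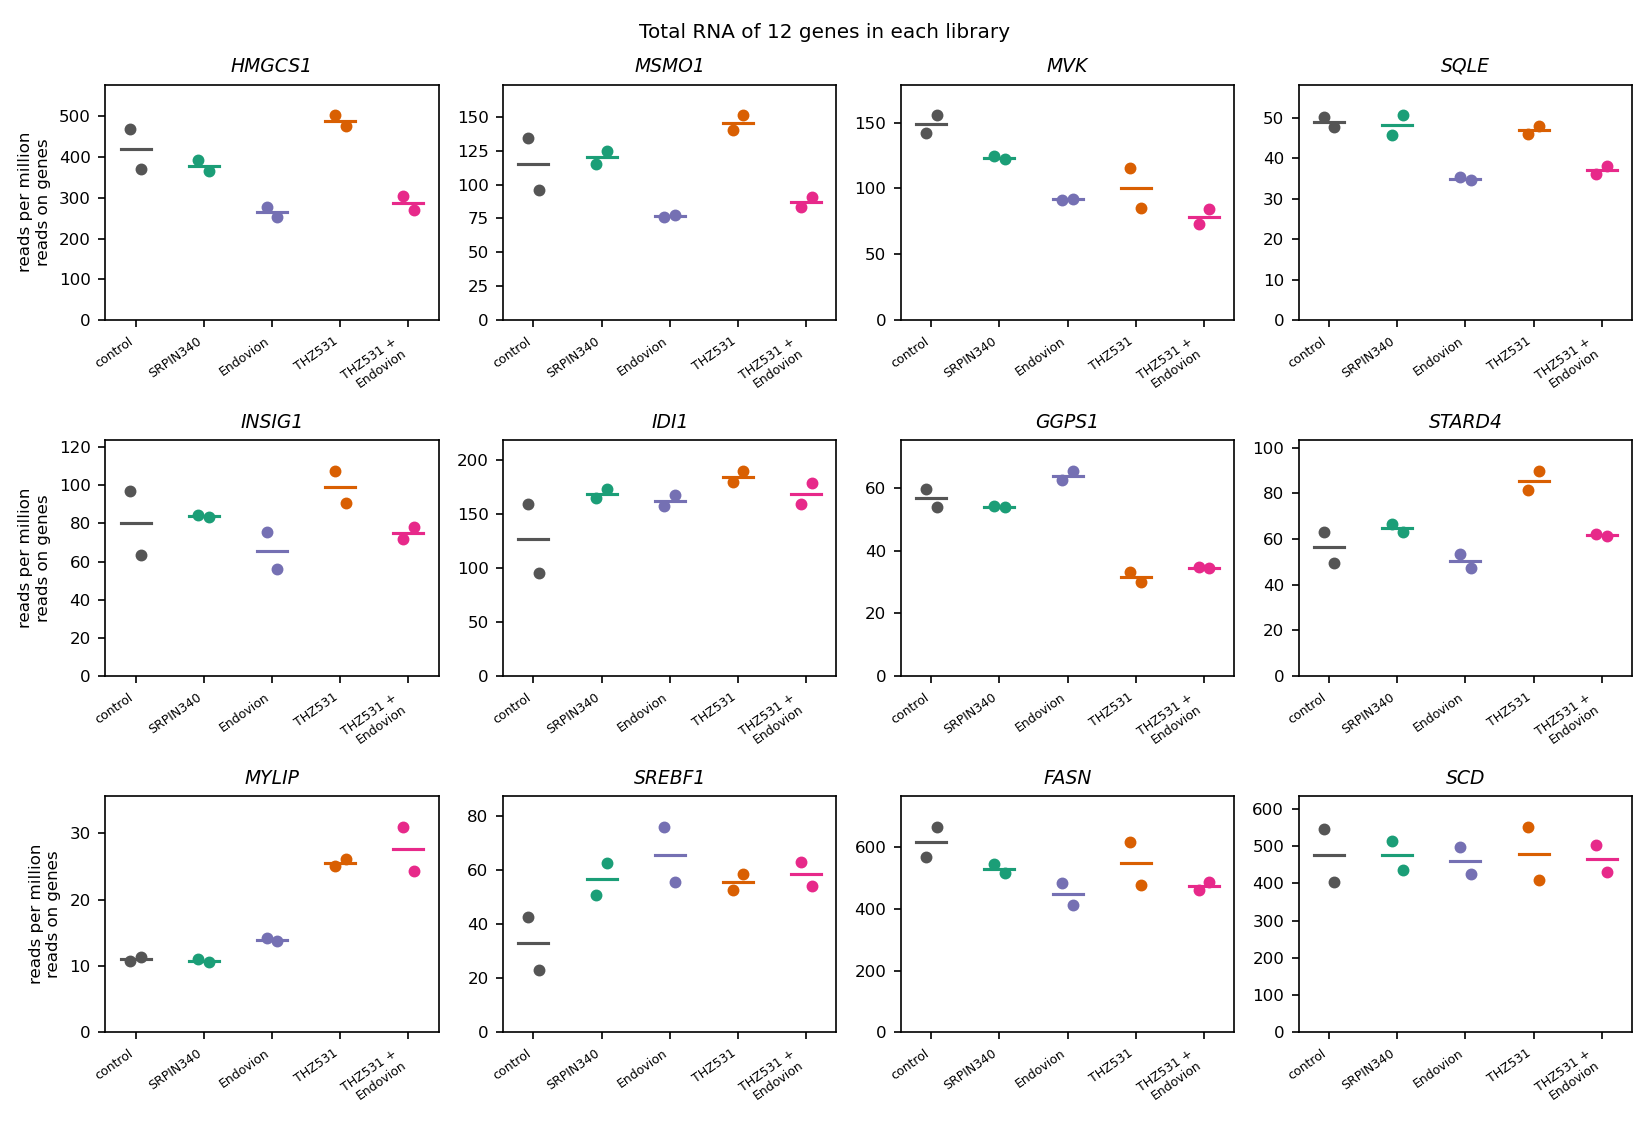
Total RNA of 12 genes in RPM (vertical axis, from 0), one point per library and a line at the mean of each of the 5 groups. HMGCS1, MSMO1 and SQLE are lowest in the groups with Endovion, GGPS1 is lowest and MYLIP highest in the groups with THZ531, and the control points of IDI1, INSIG1 and SREBF1 are far apart.

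Among the sensing genes, INSIG1, itself a well-known SREBP target, had 103 and 81.3 T>C RPM in control cells, 86.3 and 70.8 with SRPIN340, 54.6 and 65.8 with Endovion, 120 and 85.9 with THZ531, and 52.6 and 72.2 with both. The 4 libraries with Endovion were below both control libraries, but the change with Endovion (-0.66, SE 0.27, edgeR adjusted p = 0.217) did not pass. In total RNA INSIG1 was at 96.9 and 63.4 RPM in control cells and 75.3 and 56.0 with Endovion (-0.27, SE 0.18). SCAP changed by -0.89 in nascent RNA (SE 0.32, adjusted p = 0.147) and by -0.11 in total RNA.

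SREBF2, which codes for the SREBP that drives sterol synthesis, was at 231 and 247 RPM in control cells, 239 and 225 with SRPIN340, 219 and 199 with Endovion, 220 and 195 with THZ531, and 213 and 201 with both. Its change did not pass in any comparison with control, and the values lay between -0.17 and -0.06 in total RNA. Its nascent level ranged from 164 to 207 T>C RPM, with the 2 highest values in the THZ531 libraries (197 and 207).

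SREBF1 was at 42.7 and 23.1 RPM in control cells, 50.7 and 62.5 with SRPIN340, 75.9 and 55.5 with Endovion, 52.6 and 58.7 with THZ531, and 63.0 and 54.1 with both. Each treated library was above both control libraries. Total SREBF1 rose by 1.02 with Endovion (SE 0.28, edgeR adjusted p = 0.0483), 0.86 with THZ531 (adjusted p = 0.0449) and 0.94 with both (adjusted p = 0.0338), comparisons that share the same control libraries. Without control replicate 2 the values were 0.60, 0.44 and 0.52 and the calls were lost. The Endovion call was kept in 1 of the 10 fits that left out 1 library, that with THZ531 in 3 and that with both in 5. Nascent SREBF1 had 85.1 and 33.0 T>C RPM in control cells against 90.7 and 76.5 with Endovion. The groups overlapped, and the change did not pass (0.46, SE 0.30). The control libraries were apart for several of these genes. Of 34 genes with enough reads, 6 (FADS2, IDI1, INSIG1, NSDHL, SC5D and SREBF1) differed by more than 0.5 on the log2 scale between the control replicates, against 1 in each other group. Over all genes this was 10.3% in control cells and 2.82% to 7.74% in the other groups.

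With THZ531 the sterol enzymes moved in both directions. In total RNA 5 of 19 rose (CYP51A1, MSMO1, IDI1, FDFT1 and SC5D, background 16.6%) and 2 fell (MVK and GGPS1, background 14.1%), with a median of 0.02. The share that rose was above the background and the share that fell below it. The counts are small, and neither difference was tested. In nascent RNA 0 of 18 passed by edgeR or DESeq2, and 1, CYP51A1, had an unadjusted p under 0.05 (0.40, SE 0.17, background 10.8% up and 10.4% down). CYP51A1, the lanosterol demethylase, was at 259 and 198 RPM in control cells, 254 and 281 with SRPIN340, 236 and 224 with Endovion, 317 and 327 with THZ531, and 254 and 268 with both. The THZ531 libraries were the highest of the 10. Total CYP51A1 rose by 0.59 (SE 0.12, edgeR adjusted p = 0.00195), and passed in each of the 10 fits without 1 library.

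The other rises among sterol enzymes were smaller or rested on control replicate 2. IDI1 rose by 0.63 (SE 0.18, edgeR adjusted p = 0.0172) to 180 and 190 RPM from 159 and 95.9, SC5D by 0.62 (adjusted p = 0.0245), MSMO1 by 0.43 (adjusted p = 0.0245) and FDFT1, squalene synthase, by 0.31 (adjusted p = 0.0400). Without control replicate 2 they changed by 0.28, 0.27, 0.17 and 0.15 and the calls were lost. Without THZ531 replicate 2 they changed by 0.53, 0.46, 0.31 and 0.25 and the calls were again lost. The FDFT1 call was kept in 4 of the 10 fits that left out 1 library.

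GGPS1 (chr1:235327350-235344532, plus strand) showed the opposite change. Its total RNA was at 59.8 and 54.1 RPM in control cells, 54.3 and 53.8 with SRPIN340, 62.4 and 65.4 with Endovion, 33.2 and 29.95 with THZ531, and 34.7 and 34.4 with both. The 4 libraries with THZ531 were far below the other 6. Total GGPS1 fell by 0.75 on the log2 scale with THZ531 (SE 0.13, edgeR adjusted p = 0.000452) and passed in all 10 fits without 1 library. Nascent GGPS1 changed by -0.05 (SE 0.41), with 27.7 and 26.1 T>C RPM in control cells and 31.7 and 18.6 with THZ531, so a fall in newly made RNA was not detectable at this depth. MVK fell by 0.47 on the log2 scale with THZ531 (SE 0.13, edgeR adjusted p = 0.0131). Without control replicate 2 it was at -0.44, without THZ531 replicate 2 at -0.33, and neither passed.

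Of the 6 transport genes, 2 rose in total RNA with THZ531, MYLIP and STARD4 (background 16.6%), a count too small to set the group apart. The median of the 6 was 0.49 (all genes, -0.01). MYLIP (chr6:16129086-16148248, plus strand) was at 10.8 and 11.3 RPM in control cells, 10.96 and 10.5 with SRPIN340, 14.2 and 13.7 with Endovion, 25.1 and 26.1 with THZ531, and 30.9 and 24.3 with both. The 4 libraries with THZ531 were above the other 6, and the Endovion libraries lay just above control. Total MYLIP rose by 1.31 with THZ531 (SE 0.17, edgeR adjusted p = 7.9e-05) and by 1.43 with both (SE 0.17, adjusted p = 5.6e-05), and passed in each fit without 1 library. Its nascent level was 16.8 and 24.5 T>C RPM in control cells, 28.985 and 23.6 with SRPIN340, 29.2 and 26.1 with Endovion, 38.1 and 52.7 with THZ531, and 63.9 and 47.5 with both. Again all 4 libraries with THZ531 were above the rest. Nascent MYLIP rose by 1.44 with both compounds (SE 0.38, edgeR adjusted p = 0.00908), and its change with THZ531 alone was 1.14 (SE 0.38, adjusted p = 0.0531). The rise with both compounds was 1.17 without control replicate 1 and 1.16 without replicate 1 of the combined treatment, where it did not pass.

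STARD4, a carrier of cholesterol in the cytosol (chr5:111496033-111512590, minus strand), was at 62.9 and 49.7 RPM in control cells, 66.7 and 63.1 with SRPIN340, 53.4 and 47.3 with Endovion, 81.5 and 89.6 with THZ531, and 62.0 and 61.2 with both. The THZ531 libraries were the highest, and those of the combined treatment lay within the range of control cells. Total STARD4 rose by 0.70 with THZ531 (SE 0.14, edgeR adjusted p = 0.00142) and passed in each fit without 1 library. Its nascent level was 41.3 and 17.6 T>C RPM in control cells, 29.7 and 67.5 with SRPIN340, 40.0 and 23.2 with Endovion, 50.1 and 85.9 with THZ531, and 43.7 and 57.3 with both. The replicates were far apart in most groups. Nascent STARD4 rose by 1.19 with THZ531 (SE 0.38, edgeR adjusted p = 0.0381), but did not pass at 0.75 without control replicate 2, at 0.76 when THZ531 replicate 2 was left out, or at 1.20 when replicate 2 of the combined treatment was.

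The exporters that define the LXR response were barely measured. ABCA1 had 11 to 31 reads per library (0.466 to 1.21 RPM) and ABCG1 12 to 33 (0.461 to 1.35 RPM). Their total RNA changed by 0.36 (SE 0.60) and 0.81 (SE 0.53) with Endovion and by -0.52 (SE 0.63) and 0.78 (SE 0.53) with THZ531, and a change of this size was not detectable at this depth. NPC1 rose in total RNA with both compounds (0.66, SE 0.22, edgeR adjusted p = 0.0362), from 8.74 and 7.73 RPM in control cells to 10.5 and 13.98, and lost the call without any 1 of the 4 libraries compared (0.50 to 0.76). Its 3′ end overlaps RMC1 on the opposite strand.

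Of the 7 fatty acid genes, 1 fell in total RNA with Endovion (FASN, background 2.54%), 0 passed with THZ531 by edgeR, where 1 (FADS1) was lower at an unadjusted p under 0.05 (background 19.4% down and 22.1% up), and 1 fell with both compounds (ELOVL6, background 12.4%). FASN, the fatty acid synthase, was at 567 and 665 RPM in control cells, 545 and 515 with SRPIN340, 485 and 413 with Endovion, 617 and 479 with THZ531, and 461 and 486 with both. The libraries with Endovion were below both control libraries, as were those with SRPIN340. Total FASN fell by 0.44 on the log2 scale with Endovion (SE 0.13, edgeR adjusted p = 0.0371). It was at -0.36 without control replicate 2, -0.55 without Endovion replicate 1 and -0.33 without Endovion replicate 2, where it did not pass. The FASN call was kept in 4 of the 10 fits that left out 1 library. Nascent FASN, with 403 and 508 T>C RPM in control cells and 351 and 301 with Endovion, changed by -0.52 (SE 0.18, edgeR adjusted p = 0.106).

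SCD, the stearoyl-CoA desaturase, was at 546 and 405 RPM in control cells, 514 and 437 with SRPIN340, 499 and 425 with Endovion, 551 and 409 with THZ531, and 503 and 430 with both. Every treated group overlapped control, and the changes in total RNA lay between -0.02 and 0.11 with an SE of 0.18. FADS2, a desaturase of polyunsaturated fatty acids, was at 23.6 and 14.4 RPM in control cells and between 18.8 and 27.2 in treated libraries, and passed in no comparison. ELOVL6, which elongates palmitate, fell by 0.45 on the log2 scale with both compounds (SE 0.13, edgeR adjusted p = 0.0154), and was at -0.34 without replicate 2 of the combined treatment, where it did not pass. ACACA, the first committed enzyme, had 1 to 11 reads per library in the 3′ UTR intervals of the deposited tables, too few to compare. ACLY and FADS1 passed in no comparison with control.

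The combined treatment asks what Endovion adds when CDK12 is also inhibited. The comparison of both compounds with THZ531 shares no library with that of Endovion with control, so the 2 can be set side by side. All 7 genes that fell in total RNA with Endovion (MSMO1, SQLE, MVK, HMGCS1, NSDHL, MVD and FASN) were also below 0 when Endovion was added to THZ531, as were 335 of the 373 genes of the whole table that fell with Endovion (89.8%). HMGCS1 and MSMO1 fell there too, by 0.76 (SE 0.13, edgeR adjusted p = 0.0136) and 0.74 (SE 0.14, adjusted p = 0.0254) on the log2 scale, against a background of 0.184% of genes, and 0 genes rose (0.327%). HMGCS1 was lost without replicate 2 of the combined treatment (-0.64), and MSMO1 without THZ531 replicate 2 (-0.67) or either library of the combined treatment (-0.73 and -0.76). Across the 37 genes the changes of the 2 comparisons had a Pearson r of 0.645, and across all genes tested 0.165, a description over genes that are not independent. The 2 sets differ in read depth. At least 100 reads in both control libraries were counted for 34 of the 37 genes and for 9777 of the 14688 tested. The part of read depth in r was not tested. The median of the 37 genes when Endovion was added to THZ531 was -0.14 (all genes, 0.02), and 17 of 19 sterol enzymes were below 0.

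In nascent RNA HMGCS1 was the single gene of the 32 that fell when Endovion was added to THZ531 (-0.80, SE 0.18, edgeR adjusted p = 0.0152, background 0.181%), and 0 rose (0.141%). Without any 1 of the 4 libraries compared it was between -0.91 and -0.70 and did not pass. MSMO1 changed by -0.70 (SE 0.23, adjusted p = 0.239) and INSIG1 by -0.76 (SE 0.27, adjusted p = 0.350). Over the 32 genes the median was -0.19 (all genes, 0.02), and 23 were below 0.

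THZ531 was compared in the same manner without and with Endovion. Of the 8 genes that rose in total RNA with THZ531, 7 were above 0 when it was added to Endovion and SREBF1 was not (-0.08), and for all genes this was 2119 of 2435 (87.0%). MYLIP rose again, by 1.07 (SE 0.17, edgeR adjusted p = 0.00120, background 2.29%), and GGPS1 fell again, by 0.81 on the log2 scale (SE 0.13, adjusted p = 0.000908, background 5.94%), and both passed in each fit without 1 library. Pearson's r over the 37 genes was 0.679, and 0.554 over all genes, with the same difference in read depth between the sets.

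**Figure D4:**
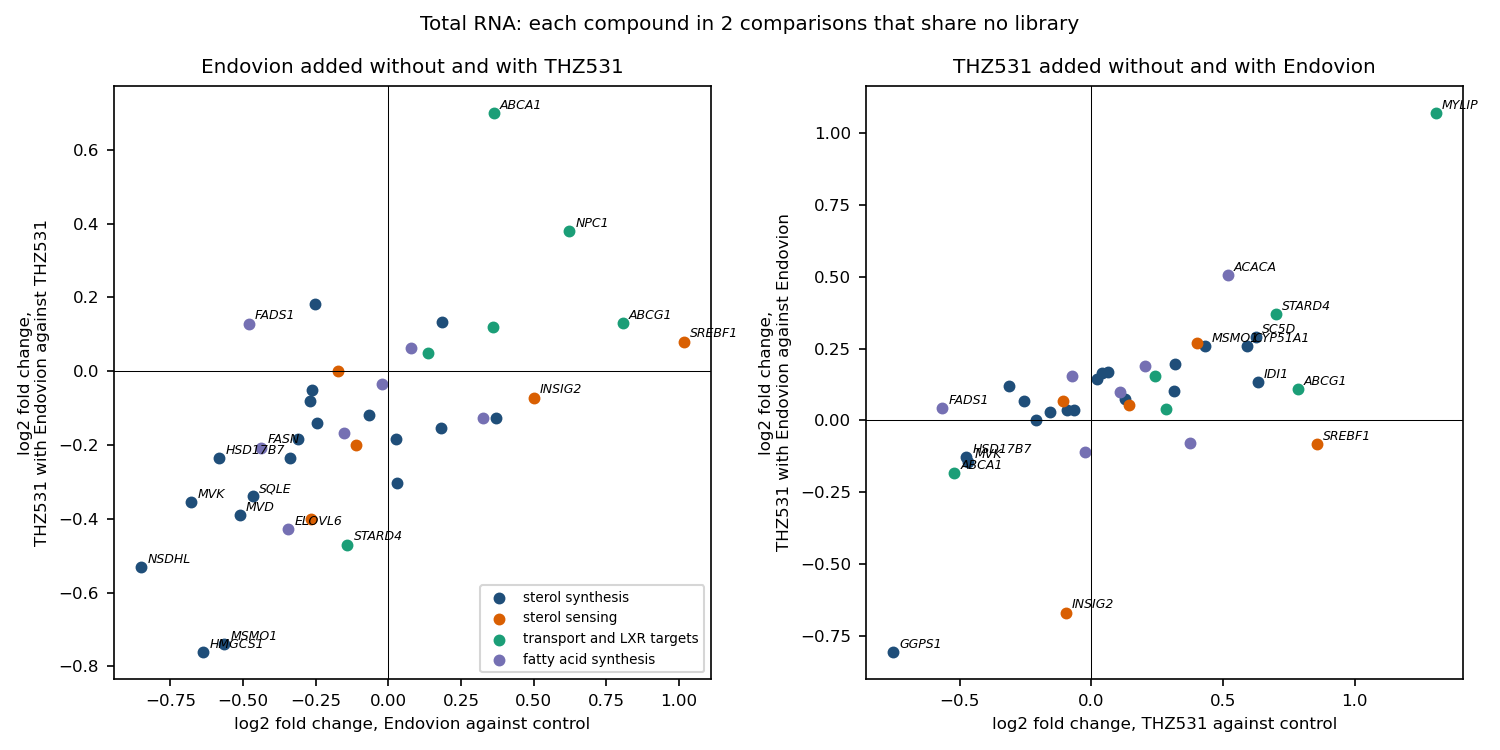
Log2 fold change of total RNA of the 37 genes when a compound was added to untreated cells (horizontal axis) and to cells that received the other compound (vertical axis), for Endovion (left) and THZ531 (right), one point per gene, coloured by role. HMGCS1 and MSMO1 lie at the lower left for Endovion, and MYLIP and GGPS1 lie at opposite ends for THZ531.

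Against control cells, 5 of 19 sterol enzymes fell in total RNA with the combined treatment (HMGCS1, MVK, GGPS1, NSDHL and HSD17B7, background 12.4%) and 1 rose (IDI1, background 16.6%). IDI1 rose by 0.51 (SE 0.18, edgeR adjusted p = 0.0481), and the call was kept in 1 of the 10 fits without 1 library and in 3 of 7 other alternatives, with 0.14 without control replicate 2 as the lowest value. MVK fell by 0.82 on the log2 scale (SE 0.13, adjusted p = 0.000384) and passed in each fit without 1 library. HMGCS1 changed by -0.44 in total RNA (SE 0.12, adjusted p = 0.0147) and -0.61 in nascent RNA (SE 0.18, adjusted p = 0.0192), and MSMO1 by -0.31 (adjusted p = 0.103) and -0.68 (SE 0.22, adjusted p = 0.0452). Without control replicate 1 HMGCS1 was at -0.26 in total and -0.42 in nascent RNA, without replicate 2 of the combined treatment at -0.32 and -0.50, and none of these passed, as nascent HMGCS1 did not without replicate 1 of that treatment (-0.72). NSDHL changed by -0.78 (SE 0.19, adjusted p = 0.00589) and was lost without control replicate 2 (-0.55), and HSD17B7 by -0.71 (SE 0.21, adjusted p = 0.0193) and was lost without any 1 of the 4 libraries compared (-0.77 to -0.70). Nascent MSMO1 passed in 3 of the 10 fits without 1 library, with -0.50 without replicate 2 of the combined treatment as the smallest size. No gene of the set passed a test of the interaction of the compounds by edgeR, in nascent RNA (background 0.0201% up and 0.282% down) or total RNA (0% and 0.00681%). At an unadjusted p under 0.05 there was 1 each, ELOVL6 (-1.31, SE 0.53, background 4.58% down and 3.13% up) in nascent and SREBF1 (-0.94, SE 0.39, background 9.32% down and 3.64% up) in total RNA. Without the filter on low counts 1 gene rose and 1 fell in total RNA.

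With SRPIN340, which shares its reported target with Endovion, 0 of 32 genes passed in nascent RNA by edgeR or DESeq2 (background 0.845% up and 0.191% down) and at an unadjusted p under 0.05 0 were higher (background 6.27%) and 3 lower (4.13%), MSMO1 (-0.57), EBP (-0.45) and FASN (-0.39). In total RNA 0 of 37 passed by edgeR (background 1.82% and 0.143%), 1 in each direction by DESeq2, and at an unadjusted p 3 were higher (SREBF1, NPC1 and IDI1, background 14.1%) and 5 lower (NSDHL, MVD, EBP, MVK and FDPS, background 5.24%). HMGCS1 changed by -0.16 in total RNA (SE 0.12), and SQLE by -0.04 (SE 0.12). Of 19 sterol enzymes, 14 lay below 0 in total RNA with SRPIN340, as many as with Endovion. Their median was -0.16 (all genes, 0.03). In nascent RNA 12 of 18 lay below 0 with SRPIN340, with a median of -0.13 (all genes, -0.01). The difference between SRPIN340 and Endovion was not tested.

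The labelled share asks whether the T>C reads of a gene changed more than its other reads. Of 32 genes, 1 passed by edgeR, ELOVL6 with Endovion (1.34, SE 0.33, adjusted p = 0.0469, background 0.0905% up and 0.432% down). None passed with SRPIN340 (background 0.0503% up and 0.121% down), THZ531 (0.121% and 0.302%) or both (0.241% and 0.764%). Its nascent level was 38.04 and 16.1 T>C RPM in control cells and 56.1 and 46.5 with Endovion, while its total RNA was 77.4 and 74.2 RPM against 64.0 and 53.7. The call was kept only without control replicate 1, and the value was 0.86 without control replicate 2. MSMO1 changed by -0.60 (SE 0.23, adjusted p = 0.361) and GGPS1 with THZ531 by 0.80 (SE 0.39, adjusted p = 0.482). The labelled share of whole libraries was 5.63% and 5.70% in control cells, 5.08% and 5.57% with SRPIN340, 5.06% and 5.17% with Endovion, 5.23% and 5.63% with THZ531, and 5.04% and 5.24% with both compounds, and its part in these values was not tested.

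A further 41 genes of the same pathways were examined. In nascent RNA 0 of 34 passed by edgeR with SRPIN340 (background 0.845% up and 0.191% down) or with Endovion (2.04% and 0.623%). With THZ531 2 rose (3.86%) and 2 fell (3.6%), and with both compounds 1 rose (4.62%) and 1 fell (3.51%). None of these counts was far from the share over all genes. ERLIN1, a part of the complex that degrades sterol-regulated proteins, had 17.4 and 9.20 T>C RPM in control cells, 34.9 and 66.4 with THZ531, and 47.7 and 51.4 with both, and rose by 1.90 (SE 0.41, adjusted p = 0.00124) and 1.87. IDH1, which makes NADPH in the cytosol, rose by 0.77 with THZ531 (SE 0.21, adjusted p = 0.0136). OXSM, an enzyme of mitochondrial fatty acid synthesis, fell by 2.41 on the log2 scale (SE 0.54, adjusted p = 0.00206), from 32.9 and 25.3 to 5.71 and 4.88. GPAM, the first enzyme of glycerolipid synthesis, fell by 1.31 with THZ531 (SE 0.41, adjusted p = 0.0369) and 1.27 with both. In total RNA 3 of 40 rose and 1 fell with Endovion (background 8.91% and 2.54%), 10 rose and 5 fell with THZ531 (16.6% and 14.1%), and 10 rose and 5 fell with both (16.6% and 12.4%). With Endovion these counts were near or below the share over all genes, as were the falls with THZ531 and with both. The rises with THZ531 and with both were above that share, which was not tested. The gene that fell with Endovion was TMEM97, a sterol-responsive membrane protein (-0.59, SE 0.13, adjusted p = 0.0115), at 58.1 and 54.2 RPM in control cells and 38.2 and 35.3 with Endovion. IFT20 overlaps the 3′ end of TMEM97 on the opposite strand. Without 1 library, calls were lost for ERLIN1 (1.38 without THZ531 replicate 2 for THZ531 alone, 1.53 without control replicate 2 for both compounds), IDH1 (0.55 without control replicate 2, 0.56 without THZ531 replicate 1), GPAM with THZ531 (-1.39 to -1.21 without any 1 of the 4 libraries) and with both compounds (kept in 4 of the 10 fits, and -1.37 to -1.17 without any 1 of the 4 libraries compared) and TMEM97 (-0.64 and -0.54 without either Endovion library). With SRPIN340 0 of 40 passed by edgeR, and 7 were higher at an unadjusted p under 0.05.

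Beside these results, the summed level of 8 prostate markers was 555 to 586 RPM in control cells, 524 to 529 with SRPIN340, 409 to 483 with Endovion, 495 to 560 with THZ531 and 354 to 430 with both compounds. The THZ531 libraries overlapped control, and those of the other 3 treatments were below it. The 8 markers of other cells summed to 2.24 to 2.46, 2.56 to 3.46, 2.25 to 3.35, 3.32 to 3.50 and 3.16 to 4.41 RPM in the same order. In total RNA, of 7 tested prostate markers 0 fell with SRPIN340 by edgeR (3 at an unadjusted p under 0.05), 3 fell with Endovion (background 2.54%), 3 with THZ531 (14.1%) and 4 with both (12.4%). In each of these comparisons 1 rose, FOLH1, by 1.45, 1.58, 1.41 and 1.43. The FOLH1 call with SRPIN340 was kept in 4 of the 10 fits without 1 library. The part of these markers in the results for the lipid genes was not tested.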

How the data were processed

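The 38 genes and all gene lists were chosen with earlier results of these data known. Per the labels and the study's methods, the authors counted 3′ end reads of iodoacetamide-treated RNA with SLAM-DUNK on 3′ UTR intervals of hg38. The deposited tables, 1 per library, hold raw counts per interval (reads, T>C reads, covered T positions, conversions). They also hold a conversion rate, which the authors give as a fraction, and a read score scaled to mapped reads; neither was tested. The submitters' processing notes name Bowtie2 2.3.4.1, SAMtools 1.6 and DESeq2 1.38.2. Whether counts were reduced by molecular identifiers, how many conversions make a T>C read and whether variants were masked are not given in the sources used here, so counting error may be understated.

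Of 104653 intervals, 92823 matched GENCODE 44 genes. Of these, 57529 were kept so that no kept intervals of the same gene overlapped, giving 31014 genes. Intervals of different genes could still overlap, and reads there may have been counted for both genes. A plain sum would have repeated 48.8% of T>C reads. The test was that of edgeR 4.0.16 on these gene counts, run under R 4.3.3 (filterByExpr, TMM scaling, robust quasi-likelihood F test, means of 5 groups over 10 libraries, 5 residual degrees of freedom, Benjamini-Hochberg over all genes tested, threshold 0.05). The labelled share was tested as T>C reads against other reads of the same gene. Scripts were tested on simulated data. Alternatives were DESeq2 1.42.0, other scaling, filters and interval sums, 2-group fits, a replicate block and leaving out each library. Genes called in nascent RNA and a set of pathway genes were named by rule; values of other genes called in total RNA were added after they were seen. Some prostate markers are not reported here.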

Additional observations from a re-analysis of the deposited data

How the results depend on the processing

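Counts of the 38 genes called, with the value of the fit reported above in parentheses, depended on the processing as follows; the causes were not tested, except that the 2-group fit uses fewer libraries. A plain sum of intervals gave, in nascent RNA, 1 gene down with Endovion (2), 0 up with THZ531 (1), 0 up (1) and 0 down (3) with both compounds and 0 down for both against THZ531 (1). In total RNA it gave 2 up with both (4) and 0 down for both against THZ531 (2), and for the labelled share 0 up with Endovion (1). The 2-group fit gave, in nascent RNA, 1 down with Endovion, 0 up with THZ531 and 1 down with both, and in total RNA 0 up with Endovion (1), 3 up with THZ531 (8) and 2 up with both; it cannot give the interaction. DESeq2 gave 0 up with THZ531 in nascent RNA and, in total RNA, 1 up and 1 down with SRPIN340 (0 and 0) and 11 down with Endovion (7). Without the filter on low counts, total RNA gave 1 up and 2 down with SRPIN340 and 1 up and 1 down for the interaction (0 and 0). The best interval of each gene gave 2 up with THZ531 in nascent RNA, and scaling by RLE 0 up with Endovion in total RNA. Deviations of same-numbered libraries from their group means were weakly correlated (-0.151 to 0.198 in total RNA). Such correlations cannot show whether the replicate numbers pair the samples, and the labels do not say. The replicate block gave 0 up with THZ531 in nascent RNA (1).

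Leaving out 1 library gave, in nascent RNA, 0 to 2 up and 1 to 2 down with Endovion, 0 to 1 up with THZ531, 0 to 1 up and 0 to 3 down with both, and 0 to 1 down for both against THZ531. In total RNA it gave 0 to 3 up and 0 to 1 down with SRPIN340, 0 to 3 up and 1 to 10 down with Endovion, 3 to 11 up and 1 to 4 down with THZ531, 1 to 5 up and 3 to 12 down with both, 0 to 2 down for both against THZ531, and 0 to 2 down for the interaction. The labelled share gave 0 to 1 up with Endovion. In total RNA, 11 and 12 were down with both compounds without THZ531 replicate 1 and 2, 1 was down with Endovion without either Endovion library, and 3 were up with THZ531 without control replicate 2 or THZ531 replicate 2. For single genes, 4000 values kept their side of the threshold, 298 lost the call and 43 gained one. The 4000 include values called in neither fit, so these numbers do not give the share of calls that was lost. No value that was called in either fit changed direction. Changes of direction among values called in neither fit were not counted. With 2 libraries a group and few T>C reads for many genes, smaller changes in nascent RNA were not detectable.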
